A study of Homo sapiens with 16 samples.

Results

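The interaction of sorafenib and methyl methanesulfonate (MMS) at 8 h was measured as the extent to which the effect of sorafenib on a transcript differed between MDA-MB-231 cells that received MMS and cells that did not. On the log2 scale it is the difference between sorafenib then MMS and MMS alone, minus the difference between sorafenib alone and DMSO. It was drawn from the 8 libraries taken at 8 h, of 16 in the series. All 13646 genes with enough counts at 8 h were tested. Cells given sorafenib then MMS had 1 µM sorafenib for 12 h before MMS was added and were harvested 8 h after MMS. The MMS cells were harvested after 8 h of MMS, the sorafenib cells after 8 h of 1 µM sorafenib, and the vehicle cells after 8 h of DMSO. For MMS the series text states 40 µg/mL whereas the labels of the samples state 40 µM, so the dose used is uncertain between these. Each of the 4 groups held 2 libraries of bulk RNA, and the series text speaks of independent experiments in the same number. The sorafenib then MMS cells had thus first met sorafenib 20 h before harvest, and the sorafenib cells 8 h before it. The sample labels do not say whether sorafenib stayed on during MMS. An interaction with MMS and an effect of the earlier start of sorafenib therefore cannot be told apart in the design.

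MDA-MB-231 is an established line of human triple-negative breast cancer with mesenchymal features. Sorafenib inhibits RAF kinases and several receptor tyrosine kinases, among them VEGF and PDGF receptors. RAF kinases act above MEK and ERK, and ERK drives transcription of early genes, growth-factor genes and proteases. MMS methylates DNA bases, and such damage, like other stresses, is known to activate the JNK and p38 kinases, which also act on AP-1 transcription factors and on the stability of short-lived mRNAs of cytokines and growth factors. By its title, the study asked about inflammation and angiogenesis when sorafenib is joined to an alkylating agent. An interaction of 0 means that the effects of sorafenib and MMS added up on the log2 scale. A positive interaction means that the level under sorafenib then MMS lay above that sum, and a negative interaction that it lay below.

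The libraries at 8 h held 16774156 to 26448212 reads counted in genes, with a median of 20348720. Levels are given as normalised counts (CPM), the count of a gene per fixed total of counts, scaled by TMM factors. They compare a gene between libraries and not 1 gene with another, since they are not divided by length. The mesenchymal markers of the line were detected in every library, with VIM at 1650 to 2440 CPM and ZEB1 at 58.9 to 115. Of the luminal markers, ESR1, the oestrogen receptor, was at 0 to 0.2 CPM, but the keratins KRT8, KRT18 and KRT19 were at 199 to 325, 150 to 265 and 106 to 165. Summed over 8 markers of the line, levels ranged from 5692 to 6333 CPM under sorafenib then MMS, 6445 to 7103 under MMS, 7049 to 7884 under sorafenib and 7682 to 8204 under DMSO. Summed over 16 luminal markers, they ranged from 910.2 to 1006 CPM under sorafenib then MMS, 835.6 to 862.3 under MMS, 864.5 to 923.5 under sorafenib and 812.3 to 817.6 under DMSO. In that sum XBP1 was at 76.1 to 279 CPM, and MMS alone raised XBP1 by 1.64 ± 0.08 on the log2 scale. Of 14 luminal markers with enough counts, MMS alone raised 2 (21.8% of all genes) and lowered 7 (21.2%), with a median log2 change of -0.22. Of the fibroblast, endothelial and leukocyte markers, COL3A1 was at most 0.0819 CPM, VWF at most 0.2 and CD3E at most 0.121. By contrast, CD68 was at 91.6 to 135 CPM, COL1A1 at 5.42 to 12.7 and KDR at 5.12 to 12.6. The sum of 13 such markers, in which CD68 was the largest, was 112.4 to 125.8 CPM under sorafenib then MMS and 141.2 to 168.7 under DMSO. No member of these 3 marker lists passed the test of the interaction, and the part of these shifts in the results below was not tested. In bulk RNA, fewer cells of a kind and less RNA per cell cannot be told apart.

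The library of replicate 1 under sorafenib then MMS stood apart from its replicate in a way that followed transcript length. Between the replicates of that group, replicate 1 minus replicate 2, the median log2 difference was 0.197 in the 10% of genes with the shortest transcripts and -0.248 in the 10% with the longest. The same medians were 0.0175 and 0.00836 under MMS, 0.0442 and 0.0248 under sorafenib, and 0.0565 and 0.0288 under DMSO. The interaction within the replicate 1 libraries therefore carried the trend too, with a median of 0.16 among the shortest and -0.31 among the longest, while the replicate 2 libraries gave -0.04 and -0.07. The plot of the interaction against transcript length shows this in 10 bins of genes. The longest annotated transcripts of VEGFA, MAP1B and AKAP12 were 12167, 12036 and 8432 bases, within the longest 10% (from 7809 bases). With the trend removed by these lengths, the interactions of these genes moved from 1.00 to 1.26, -0.84 to -0.61 and -0.88 to -0.73. Which transcript of a gene gave the reads was not determined, so a corrected size may rest on a length that is too long. Sizes given below have the trend left in unless stated. The library of replicate 1 under sorafenib then MMS was in the fit that chose the 16 genes. A fit without it has 1 library in that group and keeps the other libraries that chose these genes. The fit with the trend removed used the same libraries as well. Passing in either fit was thus favoured by the choice and lends no support. All 16 genes described below passed the test with the trend removed from each library, with adjusted p of at most 0.0054, and all 16 passed without that library, with adjusted p of at most 0.0114 (of all genes, 0.418% and 0.345% passed in these fits).

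**Figure D1:**
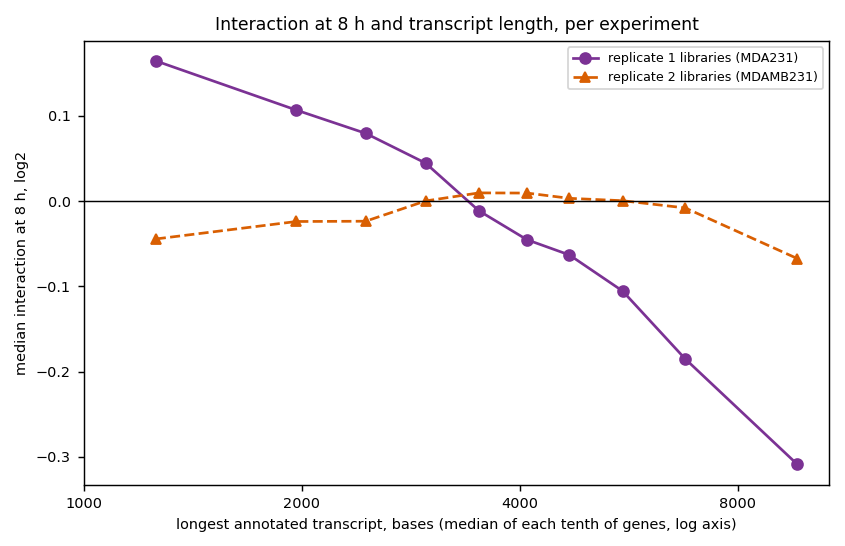
Median interaction at 8 h (log2) in 10 equal bins of the genes with a mean count of at least 50, ordered by longest annotated transcript (bases, log axis), for the replicate 1 libraries (circles) and the replicate 2 libraries (triangles). The replicate 1 line descends from 0.16 in the bin of shortest transcripts to -0.31 in the bin of longest, whereas the replicate 2 line stays between -0.07 and 0.01.

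Of 13646 genes tested, 16 passed the threshold (0.117%; edgeR, Benjamini-Hochberg adjusted p under 0.05). A positive interaction was found for 6 genes (0.044%): VEGFA, ID1, PGF, XAF1, KRT80 and PLAU. A negative interaction was found for 10 genes (0.0733%): ADAMTS1, KLF6, AKAP12, IL8, ADM, MAP1B, INHBA, DUSP1, MMP3 and TFPI2. The median interaction over all genes was 0.003, with an SD of 0.22 over the 11454 genes with a mean count of at least 50. At an unadjusted p under 0.05 there were 1248 genes (9.15%). The 16 genes had the same sign in both experiments taken alone, as did 51.8% of all genes tested, which is a description, because both experiments entered the fit. The fit took the start of the sample titles as a block. That a title start marks 1 experiment was assumed throughout, since the labels do not say so. Without the block 0 genes passed in edgeR, with 367 at an unadjusted p under 0.05 and an adjusted p of 1 for each of the 16, and DESeq2 without it called 4. A fit of all 16 libraries with the block, which takes its spread from both times, called 7 genes at 8 h (0.0502%), each of them among the 16: ADAMTS1, KLF6, VEGFA, AKAP12, INHBA, DUSP1 and TFPI2. In it the adjusted p was 0.0602 for MAP1B, 0.0678 for KRT80, 0.0714 for PGF, 0.073 for XAF1, 0.0874 for IL8 and for ID1, 0.187 for PLAU, 0.217 for MMP3 and 0.313 for ADM. In fits that left out 1 library, the count was 0 without DMSO replicate 2, 3 without sorafenib replicate 1, 7 without sorafenib replicate 2, 48 without replicate 1 of sorafenib then MMS and 1089 without replicate 2 of that group.

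**Figure D2:**
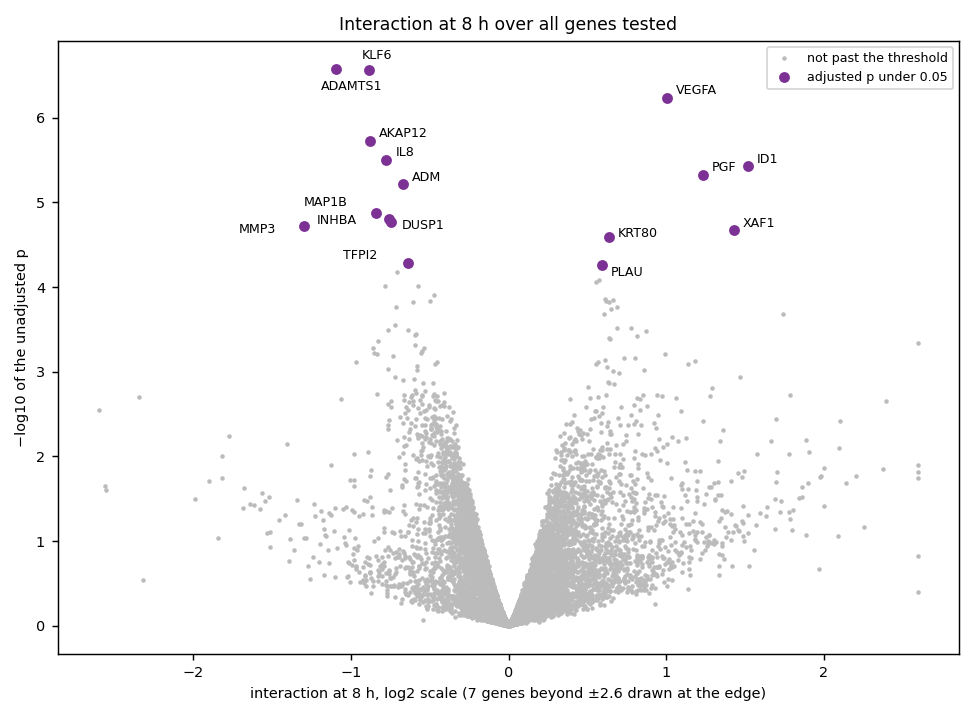
Interaction at 8 h (x axis, log2) against -log10 of the unadjusted p (y axis) for the 13646 genes tested, with the 16 genes past an adjusted p of 0.05 filled and named. The genes past the threshold lie between 0.59 and 1.52 in size, 6 above 0 and 10 below, and 7 genes with sizes beyond the x axis are drawn at its edges.

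The 4 single effects that make up the interaction use the same libraries, so that they describe the 16 genes and lend no further support. MMS alone raised all 10 genes with a negative interaction and lowered 5 of the 6 with a positive one. These 15 of 16 compare with 43% of all genes tested, 21.8% raised and 21.2% lowered. Sorafenib alone passed for 10 of the 16 genes, against 5.13% of all genes. It lowered 7 of them (VEGFA, AKAP12, IL8, PGF, MMP3, TFPI2 and PLAU) and raised 3 (ADM, MAP1B and KRT80), against 3.11% and 2.02% of all genes. Against MMS alone, 14 of the 16 differed in the sorafenib then MMS cells (9.25% of all genes), with VEGFA and ADM as the exceptions. They were lower for 10 genes and higher for 4, against 5.69% and 3.55% of all genes. The sorafenib then MMS libraries lay below both MMS libraries for 11 of the 16 genes, above both for 4 and among them for ADM. These positions were not counted over all genes, and the same libraries chose the 16, so the counts are a description.

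**Figure D3:**
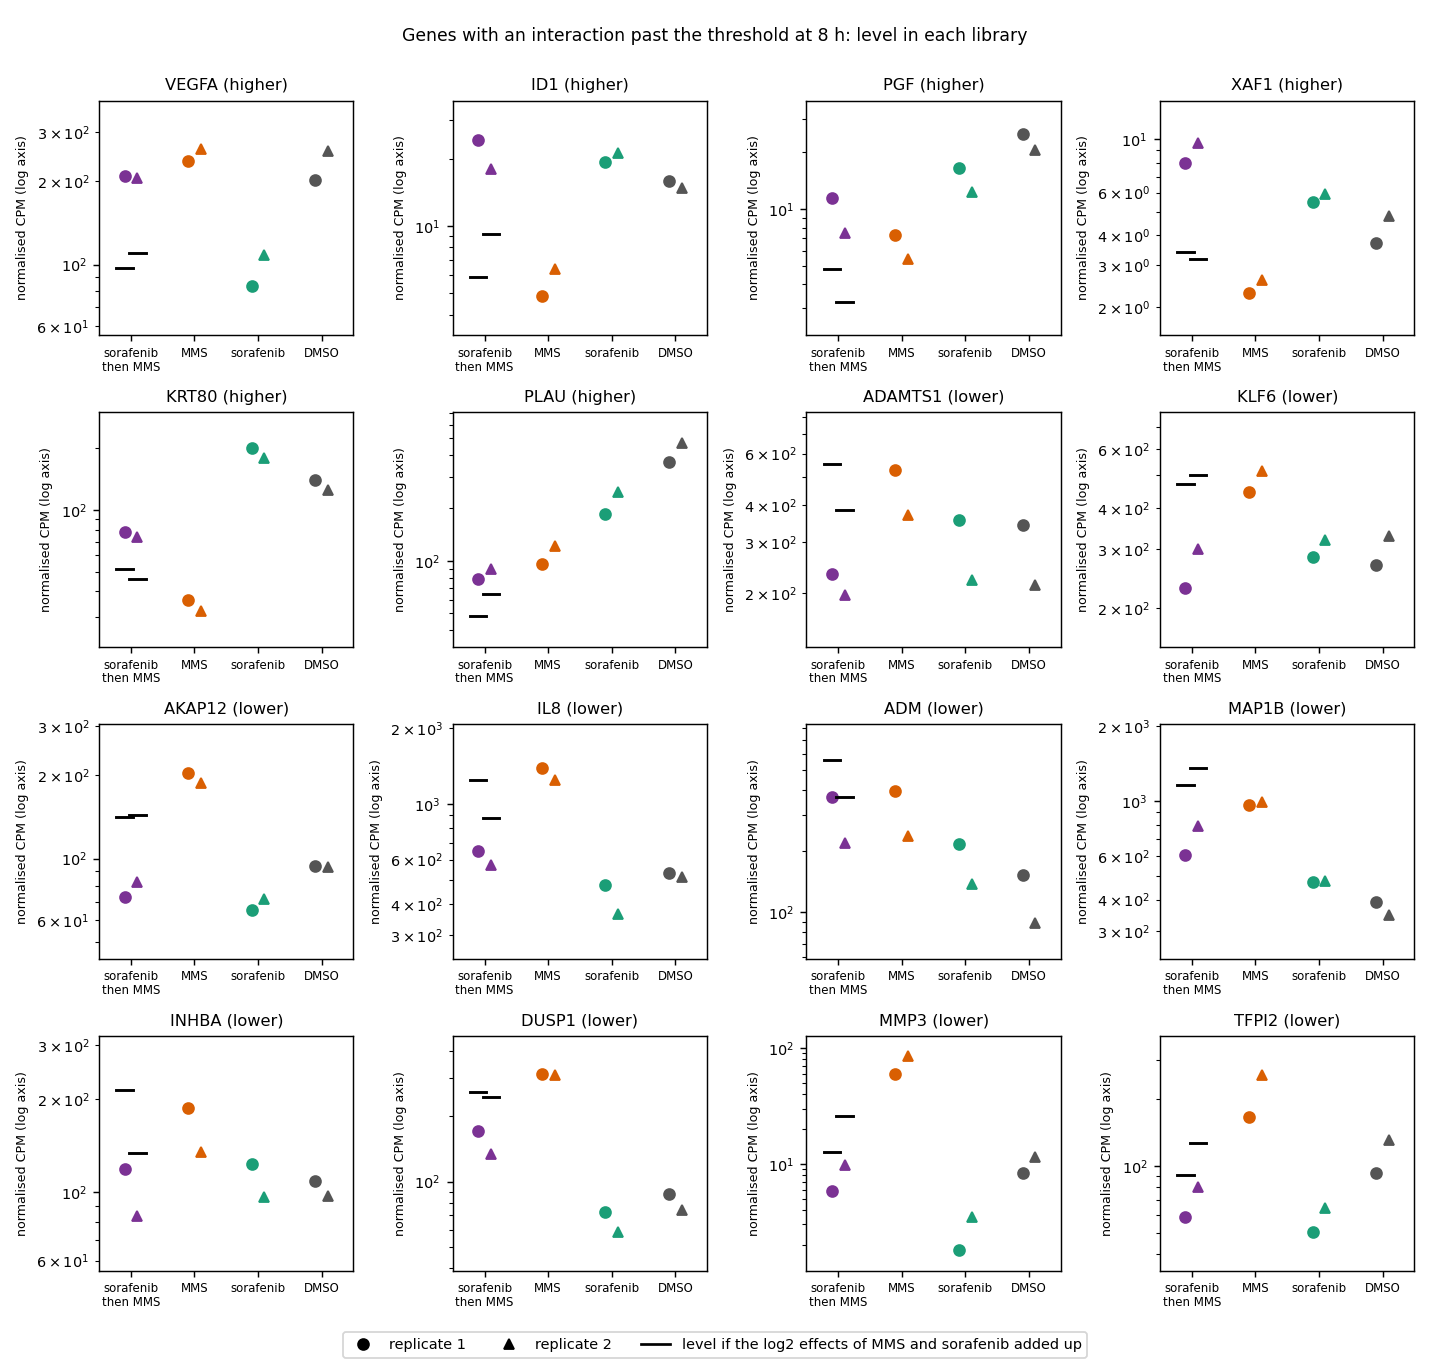
Normalised CPM (log axis) of the 16 genes in each of the 8 libraries at 8 h, 2 per group, with circles for replicate 1 and triangles for replicate 2. Black lines mark the level that sorafenib then MMS would have had if the log2 effects of both agents added up, and the sorafenib then MMS points lie above that line for the 6 genes with a positive interaction and below it for the 10 others, in both experiments.

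Promoter windows were read for the called genes of both directions, since AP-1, CRE-binding, NF-kB and SRF factors lie downstream of the kinases named above. Of the 16 genes, 12 were matched in the RefSeq promoter table (GRCh38.p14). Within 250 bases before the start, on either strand, the AP-1 motif TGANTCA was found in IL8 and TFPI2, among 6.60% of 27305 promoters. The CRE motif TGACGTCA was found in DUSP1, among 1.77% of promoters. An NF-kB motif, GGGRNWYYCC, was found in XAF1 and TFPI2 (5.05% of promoters) and a CArG motif, CCWWWWWWGG, in AKAP12 (1.14%). In these letters N is any base, R is A or G, W is A or T and Y is C or T. The stretch TGGAATTTCC in the IL8 window departs from the NF-kB motif in its first letter and was not counted. Windows of 100 bases, from 160 to 61 bases before the start and read on the strand of the gene, are shown for the 3 genes with an AP-1 or CRE motif. These had a negative interaction, as did most of the 12 genes matched. Capitals mark matches to the motifs as written above, in TFPI2 the NF-kB motif first and then AP-1. They lie at chr4:73740409-73740508 on the plus strand for IL8, at chr5:172771256-172771355 on the minus strand for DUSP1 and at chr7:93890814-93890913 on the minus strand for TFPI2.
IL8: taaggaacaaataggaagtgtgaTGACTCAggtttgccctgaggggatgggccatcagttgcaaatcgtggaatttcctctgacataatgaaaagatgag
DUSP1: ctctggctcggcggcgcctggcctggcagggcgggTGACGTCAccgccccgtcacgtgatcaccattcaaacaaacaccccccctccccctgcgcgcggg
TFPI2: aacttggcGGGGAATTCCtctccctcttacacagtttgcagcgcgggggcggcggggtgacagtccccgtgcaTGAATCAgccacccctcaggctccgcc
A match describes letters in a window and is neither a binding site nor a cause, and a window without one says nothing about the factor.

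Among secreted factors of the vasculature, VEGFA and PGF lay above the sum of the single effects and ADM below it. VEGFA, the main ligand of the VEGF receptors of endothelium, had 209 and 206 CPM under sorafenib then MMS, 236 and 261 under MMS, 83.4 and 108 under sorafenib and 202 and 256 under DMSO. The 2 sorafenib libraries stood below the other 6, whereas the sorafenib then MMS libraries fell within the range of DMSO and just below MMS. Sorafenib lowered VEGFA by itself (log2 change -1.26 ± 0.09 SE, adjusted p = 2.00e-07), while the change with sorafenib in MMS cells was -0.26 ± 0.09 (adjusted p = 0.0817). Added log2 effects would have put sorafenib then MMS at 97.4 and 110 CPM, and the interaction was 1.00 ± 0.13 (SE, n = 2 libraries per group, edgeR adjusted p = 0.00263).

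PGF, placental growth factor, a VEGF relative that binds VEGF receptor 1, had 11.4 and 7.53 CPM under sorafenib then MMS, 7.34 and 5.42 under MMS, 16.6 and 12.3 under sorafenib and 25.1 and 20.6 under DMSO. DMSO libraries were highest and MMS libraries lowest, with no overlap between any of the 4 groups. Each agent lowered PGF alone, with log2 changes of -1.85 ± 0.13 for MMS and -0.67 ± 0.12 for sorafenib. In MMS cells the change with sorafenib was 0.56 ± 0.14 (adjusted p = 0.0209), and the interaction was 1.23 ± 0.19 (adjusted p = 0.00912). ADM, adrenomedullin, a vasodilator peptide that also acts on endothelial growth, had 369 and 218 CPM under sorafenib then MMS, 392 and 235 under MMS, 217 and 138 under sorafenib and 152 and 88.7 under DMSO. Replicate 1 exceeded replicate 2 in all 4 groups, and within each replicate the order was MMS, sorafenib then MMS, sorafenib and DMSO. Each agent raised ADM alone (MMS 1.39 ± 0.07, sorafenib 0.57 ± 0.07), and their log2 sum would have been 558 and 366 CPM. The interaction was -0.67 ± 0.10 (adjusted p = 0.0105).

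In fits that left out 1 library, VEGFA missed the threshold without sorafenib replicate 1 (adjusted p = 0.0631) and without DMSO replicate 2 (0.0965). PGF missed it without sorafenib replicate 1 (0.0876), sorafenib replicate 2 (0.0762) or DMSO replicate 2 (0.179). ADM missed it without sorafenib replicate 1 (0.0876), sorafenib replicate 2 (0.143), DMSO replicate 1 (0.0655) or DMSO replicate 2 (0.262).

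Of the list of angiogenic ligands and receptors, 27 of 34 members had enough counts, and those 3 were the members past the threshold (0.117% of all genes). The list's median interaction was 0.07, against 0.003 over all genes. FGF5, a fibroblast growth factor, came next by p. It had 62.6 and 57.5 CPM under sorafenib then MMS, 117 and 83.8 under MMS, 110 and 90.7 under sorafenib and 128 and 100 under DMSO. Its sorafenib then MMS libraries were the 2 lowest, with an interaction of -0.54 ± 0.13 that missed the threshold (adjusted p = 0.147).

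The chemokine IL8 (CXCL8), which attracts neutrophils and acts on endothelium, and 2 early response genes lay below the sum of the single effects. IL8 had 652 and 572 CPM under sorafenib then MMS, 1383 and 1242 under MMS, 476 and 363 under sorafenib and 531 and 514 under DMSO. The groups did not overlap, with MMS libraries highest and sorafenib libraries lowest. MMS raised IL8 (1.33 ± 0.08) and sorafenib lowered it (-0.33 ± 0.08, adjusted p = 0.0222), while in MMS cells the change with sorafenib was -1.10 ± 0.08. The added effects came to 1241 and 878 CPM, and the interaction was -0.78 ± 0.11 (adjusted p = 0.00848).

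DUSP1, a nuclear phosphatase that switches off JNK and p38 and is itself induced by stress, had 170 and 134 CPM under sorafenib then MMS, 311 and 310 under MMS, 72.8 and 58.5 under sorafenib and 87.5 and 73.7 under DMSO. Its libraries of sorafenib then MMS stood between those of MMS and those of the other groups. MMS raised DUSP1 by 1.95 ± 0.09, and the interaction was -0.75 ± 0.13 (adjusted p = 0.0212). KLF6, a zinc-finger transcription factor of the Kruppel-like family induced early by growth signals and injury, had 229 and 301 CPM under sorafenib then MMS, 446 and 515 under MMS, 285 and 320 under sorafenib and 270 and 329 under DMSO. Only the MMS libraries stood apart for KLF6, and the other 3 groups overlapped. MMS raised KLF6 by 0.69 ± 0.08, sorafenib alone gave 0.02 ± 0.08 (adjusted p = 0.956), and the interaction was -0.89 ± 0.11 (adjusted p = 0.00184).

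KLF6 missed the threshold without DMSO replicate 2 (adjusted p = 0.0557). IL8 missed it without sorafenib replicate 1 (0.148), DMSO replicate 1 (0.084) or DMSO replicate 2 (0.0557). DUSP1 missed it without MMS replicate 2 (0.113), sorafenib replicate 1 (0.355), sorafenib replicate 2 (0.0762), DMSO replicate 1 (0.099) or DMSO replicate 2 (0.329).

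Of 30 immediate early and AP-1 genes, all with enough counts, DUSP1 and KLF6 passed (0.117% of all genes), both with a negative interaction. Below 0 were 18 of 30, with a median of -0.05. Over all genes the median was 0.003, an almost even split around 0. JUN, an AP-1 subunit, had 129 and 146 CPM under sorafenib then MMS, 212 and 227 under MMS, 124 and 173 under sorafenib and 154 and 185 under DMSO. Its interaction was -0.48 ± 0.12 (adjusted p = 0.232). KLF4, a relative of KLF6, pointed the other way at 0.64 ± 0.14 (adjusted p = 0.126), with 46.4 and 53.7 CPM under sorafenib then MMS and at most 43.7 CPM in the other 6 libraries. Neither gene passed.

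Of 31 cytokines and chemokines, 28 had enough counts and 1 passed, IL8 (0.117% of all genes). The list's median was -0.20, against 0.003 over all genes, with 18 of 28 members below 0. The neutrophil chemokines next to IL8 had interactions of -0.41 ± 0.11 for CXCL1, -0.42 ± 0.16 for CXCL2 and -0.42 ± 0.17 for CXCL3, none past the threshold (adjusted p of 0.265, 0.424 and 0.470). CSF1, the macrophage growth factor, gave 0.65 ± 0.14 (adjusted p = 0.0797) and CSF3, the granulocyte growth factor, 0.87 ± 0.19 (adjusted p = 0.114). IL6, the inflammatory cytokine that signals through gp130, had 82.1 and 64.2 CPM under sorafenib then MMS, 86.3 and 113 under MMS, 57.9 and 47.2 under sorafenib and 52.6 and 64.0 under DMSO. Its MMS libraries were highest and the other groups close together, and its interaction of -0.29 ± 0.20 missed the threshold (adjusted p = 0.712). No member of the list of the IL6, gp130 and STAT3 axis passed, of 18.

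Among proteases of the extracellular matrix and their inhibitors, MMP3, ADAMTS1 and TFPI2 lay below the sum of the single effects and PLAU above it. MMP3, stromelysin, a metalloprotease with many matrix substrates, had 5.82 and 9.85 CPM under sorafenib then MMS, 59.7 and 84.6 under MMS, 1.797 and 3.499 under sorafenib and 8.40 and 11.4 under DMSO. Its MMS libraries stood far above the rest, and the sorafenib then MMS libraries overlapped DMSO. MMS raised MMP3 by 2.87 ± 0.12 on the log2 scale and sorafenib lowered it, with a change of -3.21 ± 0.12 in MMS cells, against -1.91 ± 0.17 in cells without MMS. The interaction was -1.30 ± 0.22 (adjusted p = 0.0216), with 12.8 and 25.9 CPM as the sum of the single effects.

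ADAMTS1, a secreted metalloprotease that cleaves proteoglycans and is known as an inhibitor of angiogenesis, had 233 and 197 CPM under sorafenib then MMS, 528 and 370 under MMS, 357 and 222 under sorafenib and 341 and 214 under DMSO. Within each replicate, sorafenib then MMS gave the lowest level and MMS the highest. Sorafenib alone gave a log2 change of 0.06 ± 0.09 (adjusted p = 0.868), but lowered ADAMTS1 in MMS cells, with a change of -1.04 ± 0.09. Its interaction was -1.10 ± 0.13 and had the smallest p of all genes tested (adjusted p = 0.00184). TFPI2, a Kunitz-type inhibitor of plasmin and other serine proteases, had 58.8 and 80.7 CPM under sorafenib then MMS, 166 and 257 under MMS, 50.5 and 64.9 under sorafenib and 92.5 and 131 under DMSO. Its sorafenib then MMS libraries overlapped sorafenib and lay below DMSO, and the interaction was -0.64 ± 0.12 (adjusted p = 0.0467).

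PLAU, urokinase, the protease that activates plasminogen, had 78.5 and 89.6 CPM under sorafenib then MMS, 95.4 and 122 under MMS, 186 and 249 under sorafenib and 368 and 470 under DMSO. The 4 groups did not overlap and PLAU was lowest under sorafenib then MMS. Both agents lowered PLAU alone (MMS -1.95 ± 0.08, sorafenib -0.95 ± 0.08), whereas in MMS cells the change with sorafenib was -0.36 ± 0.08. The positive interaction of 0.59 ± 0.11 (adjusted p = 0.047) thus belongs to a gene that was lowered in both settings, by less in MMS cells. PLAU overlaps C10orf55 and TFPI2 overlaps GNGT1 on the opposite strand, and with the strand setting of the counting not given, reads of the overlapping parts cannot be told apart.

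Without DMSO replicate 2 the adjusted p was 0.0557 for ADAMTS1, 0.329 for MMP3, 0.427 for TFPI2 and 0.446 for PLAU. ADAMTS1 passed in the other 7 such fits. MMP3 also missed the threshold without MMS replicate 1 (0.0514), sorafenib replicate 1 (0.0636), sorafenib replicate 2 (0.346) or DMSO replicate 1 (0.0582). TFPI2 missed it without MMS replicate 2 (0.228), sorafenib replicate 1 (0.637), sorafenib replicate 2 (0.117) or DMSO replicate 1 (0.158), and with RLE in place of TMM factors (0.052) or a mean count of at least 50 (0.0562). PLAU missed it without MMS replicate 1 (0.162), MMS replicate 2 (0.113), sorafenib replicate 1 (0.637), sorafenib replicate 2 (0.145) or DMSO replicate 1 (0.142), and with RLE factors (0.0536).

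Of 33 matrix proteases and their regulators listed, 30 had enough counts and 3 passed (0.117% of all genes), ADAMTS1 and MMP3 below 0 and PLAU above. The list's median was -0.01. ADAMTS6, a relative of ADAMTS1, gave -0.61 ± 0.17 (adjusted p = 0.258), and the collagenase MMP1 gave -0.51 ± 0.14 (adjusted p = 0.265). ADAMTS6 had 40.2 and 44.6 CPM under sorafenib then MMS, 133 and 98.7 under MMS, 24.2 and 22.4 under sorafenib and 46.3 and 36.4 under DMSO.

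Of the TGF-beta and mesenchymal list, ID1 lay above the sum and INHBA below it. ID1, a helix-loop-helix inhibitor of differentiation factors and a target of BMP-activated SMADs, had 24.3 and 18.0 CPM under sorafenib then MMS, 4.85 and 6.40 under MMS, 19.3 and 21.2 under sorafenib and 15.9 and 14.7 under DMSO. Both MMS libraries fell far below the other 6, and the sorafenib then MMS libraries overlapped sorafenib and exceeded DMSO. MMS lowered ID1 (-1.46 ± 0.17), while the change with sorafenib was 0.40 ± 0.15 alone (adjusted p = 0.157) and 1.92 ± 0.17 in MMS cells. The interaction was 1.52 ± 0.22 (adjusted p = 0.00848), and it was 1.85 within the replicate 1 libraries and 0.87 within the replicate 2 libraries.

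INHBA, the subunit that forms activin A, a ligand of the TGF-beta family, had 119 and 83.5 CPM under sorafenib then MMS, 188 and 135 under MMS, 124 and 96.6 under sorafenib and 109 and 97.4 under DMSO. Its MMS libraries were highest, and the other 3 groups overlapped. The interaction was -0.76 ± 0.13 (adjusted p = 0.0212). PMEPA1, a membrane protein that restrains TGF-beta signalling, came close at 0.64 ± 0.13 (adjusted p = 0.0735). PMEPA1 had 46.3 and 67.7 CPM under sorafenib then MMS, 33.9 and 63.9 under MMS, 51.6 and 90.3 under sorafenib and 67.0 and 118 under DMSO. Within each replicate, PMEPA1 was highest under DMSO and lowest under MMS. The list held 31 genes with enough counts of 32, 2 past the threshold (0.117% of all genes), and its median was -0.01.

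ID1 missed the threshold without sorafenib replicate 1 (adjusted p = 0.0876), DMSO replicate 1 (0.0617) or DMSO replicate 2 (0.134). INHBA missed it without MMS replicate 1 (0.0992), sorafenib replicate 1 (0.169), sorafenib replicate 2 (0.143), DMSO replicate 1 (0.138) or DMSO replicate 2 (0.0557).

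The other 4 genes past the threshold were AKAP12, MAP1B, KRT80 and XAF1, of which only XAF1 was on a list. AKAP12, a scaffold that anchors protein kinases A and C, had 72.5 and 82.5 CPM under sorafenib then MMS, 203 and 186 under MMS, 65.5 and 71.6 under sorafenib and 94.0 and 93.1 under DMSO. MMS libraries were highest and sorafenib libraries lowest, with no overlap between groups, and the interaction was -0.88 ± 0.12 (adjusted p = 0.00639). MAP1B, a microtubule-associated protein best known from growing axons, had 605 and 790 CPM under sorafenib then MMS, 962 and 987 under MMS, 471 and 476 under sorafenib and 393 and 347 under DMSO. Each agent raised MAP1B alone, MMS by 1.40 ± 0.10 and sorafenib by 0.36 ± 0.10, but the change with sorafenib in MMS cells was -0.49 ± 0.10. Its interaction was -0.84 ± 0.14 (adjusted p = 0.0202).

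KRT80, an epithelial keratin, had 77.8 and 73.6 CPM under sorafenib then MMS, 36.1 and 32.1 under MMS, 200 and 178 under sorafenib and 140 and 125 under DMSO. The groups did not overlap, and sorafenib raised KRT80 in both settings, by 0.51 ± 0.08 alone and by 1.15 ± 0.08 in MMS cells, for an interaction of 0.64 ± 0.11 (adjusted p = 0.0248). XAF1, an interferon-inducible antagonist of the apoptosis inhibitor XIAP, had 7.97 and 9.69 CPM under sorafenib then MMS, 2.29 and 2.59 under MMS, 5.48 and 5.90 under sorafenib and 3.69 and 4.79 under DMSO. Its sorafenib then MMS libraries were the 2 highest and its MMS libraries the 2 lowest. The interaction was 1.43 ± 0.24 (adjusted p = 0.0223). XAF1 had a mean count of 106, the lowest of the 16 genes.

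AKAP12 missed the threshold without sorafenib replicate 2 (adjusted p = 0.0762) or DMSO replicate 2 (0.147). MAP1B missed it without sorafenib replicate 1 (0.167), sorafenib replicate 2 (0.0762) or DMSO replicate 2 (0.329). KRT80 and XAF1 missed it in each of the 6 fits without an MMS, sorafenib or DMSO library, with adjusted p of 0.0999 and 0.0657 without MMS replicate 1, 0.113 and 0.103 without MMS replicate 2, 0.344 and 0.103 without sorafenib replicate 1, 0.189 and 0.161 without sorafenib replicate 2, 0.133 and 0.0681 without DMSO replicate 1, and 0.299 and 0.427 without DMSO replicate 2, KRT80 first in each pair.

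The remaining gene lists held few genes past the threshold, which 0.117% of all genes passed. Of 27 lists, 20 had none, and their medians ranged from -0.17 to 0.13. The list of ERK output, genes that follow the activity of the pathway below RAF, had 0 of 28 past the threshold and 10 at an unadjusted p under 0.05 (9.15% of all genes), with a median interaction of 0.08. Sorafenib alone lowered 19 of these 28 (3.11% of all genes) and raised 0 (2.02%), and in MMS cells it lowered 17 (5.69% of all genes) and raised 0 (3.55%). DUSP6, the phosphatase that switches off ERK and is induced by it, had 90.5 and 81.6 CPM under sorafenib then MMS, 146 and 134 under MMS, 144 and 141 under sorafenib and 365 and 317 under DMSO. Its sorafenib then MMS libraries were lowest and its DMSO libraries highest, and the interaction was 0.55 ± 0.11 (adjusted p = 0.0627). SPRY2, another feedback inhibitor of the pathway, pointed the other way at -0.55 ± 0.13 (adjusted p = 0.154).

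Stress and damage programs had no member past the threshold with the length trend left in. Over all genes, MMS alone raised 21.8% and lowered 21.2%, and 9.15% had an interaction at an unadjusted p under 0.05. Of the 38 genes of the ATF4 integrated stress response with enough counts, MMS alone raised 37, and the interaction was past the threshold for 0, with 7 at an unadjusted p under 0.05 and a median of 0.02. The same held for 28 NRF2 and oxidative stress genes (21 raised by MMS alone, 5 at an unadjusted p under 0.05, median interaction 0.02), for 32 p53 targets (18 raised, 4 at an unadjusted p under 0.05, median 0.01) and for 42 mitosis and G2/M genes (38 lowered, 6 at an unadjusted p under 0.05, median -0.10). Among 36 interferon-stimulated genes only XAF1 passed (0.117% of all genes). The median of that list was 0.17, against 0.003 over all genes, and 7 of 36 members were below 0. Of 34 hypoxia and glycolysis genes only VEGFA passed, and DDIT4, an inhibitor of mTOR signalling that is also on the ATF4 list, was next at 0.62 ± 0.13 (adjusted p = 0.0735). The plot of list members shows the spread of each list around 0.

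**Figure D4:**
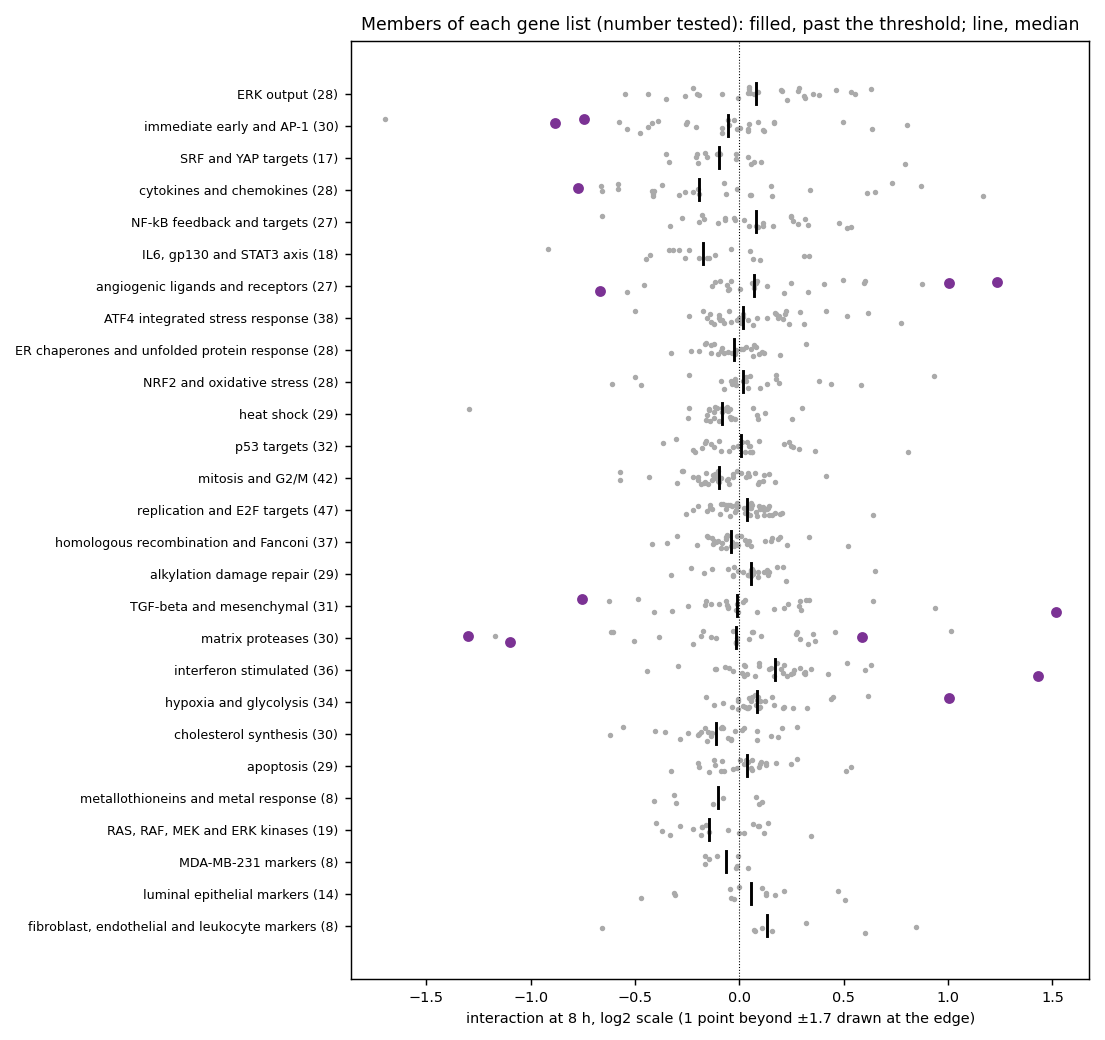
Interaction at 8 h (x axis, log2) of the tested members of each of 27 gene lists (rows, number tested in brackets), with members past the threshold as large filled points and the list median as a vertical line. All medians lie between -0.20 and 0.17, and the members past the threshold sit in 7 of the lists, VEGFA in 2 of them.

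Just outside the threshold, chosen after their values were seen, were GPRC5A, WWTR1, DUSP6, STC1 and RND3, with adjusted p of 0.0532 to 0.0629. GPRC5A, an orphan receptor induced by retinoic acid, gave -0.71 ± 0.13. WWTR1, the transcriptional coactivator TAZ of the Hippo pathway, gave 0.58 ± 0.11. STC1, a secreted glycoprotein, gave -0.78 ± 0.15, and RND3 gave -0.58 ± 0.11. Just inside were PLAU and TFPI2, with adjusted p of 0.047 and 0.0467. When the length trend was removed from each library, an alternative added once the data had been seen, 57 genes passed (0.418%), 32 above 0 and 25 below, among them the 16 and 41 further genes. The 5 genes just outside the threshold were all among the 41, as were TNFSF15, CSF1, CSF3 and CXCL1 of the cytokine list, DUSP6, SPRY2 and ETV1 of ERK output, and KLF4 and JUN of the early genes. So were DDIT4 of the ATF4 and hypoxia lists (adjusted p = 0.01) and TXNRD1 of the NRF2 list (adjusted p = 0.0117).

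At 24 h the same interaction was fitted in the other 8 libraries, in which sorafenib then MMS cells had 12 h of sorafenib before 24 h of MMS. Again 16 genes passed, of 13744 tested (0.116%), 12 above 0 (0.0873%) and 4 below (0.0291%), and 0 of them were among the 16 of 8 h, that is 0% of either list. Each of the 16 genes of 8 h had a smaller interaction at 24 h, and 12 of them, or 75%, kept the sign, against 56.8% of the 13510 genes tested at both times. Because the 16 were chosen for their 8 h values, smaller sizes at 24 h follow in part from that choice. They cannot show that the interaction faded with time. VEGFA had 63.5 and 71.7 CPM at 24 h under sorafenib then MMS, 93.7 and 143 under MMS, 147 and 158 under sorafenib and 325 and 355 under DMSO. Its interaction was 0.36 ± 0.14 at 24 h (adjusted p = 0.482). At 24 h the 4 groups did not overlap for VEGFA, and sorafenib then MMS was lowest.

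IL8 had 259 and 194 CPM at 24 h under sorafenib then MMS, 461 and 399 under MMS, 733 and 435 under sorafenib and 980 and 716 under DMSO. DMSO libraries were high and sorafenib then MMS libraries low, and the interaction was -0.38 ± 0.13 (adjusted p = 0.416). MMP3 had 10.6 and 21.8 CPM under sorafenib then MMS, 92.1 and 97.3 under MMS, 1.08 and 2.27 under sorafenib and 6.10 and 10.3 under DMSO, with an interaction of -0.30 ± 0.36 (adjusted p = 0.894). For MMP3, MMS libraries were again far above the rest at 24 h.

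The difference between the times itself, 8 h minus 24 h, was tested over 13948 genes in all 16 libraries. No gene passed (0 of 13948, edgeR), 647 genes had an unadjusted p under 0.05, and DESeq2 called 4. Of the 16 genes of 8 h, 14 had an unadjusted p under 0.05 for the difference, all but IL8 and MAP1B. The 16 were chosen by their 8 h values, which enter this difference. Small p-values among them were thus favoured by the choice and lend no support to a change with time. The smallest adjusted p was that of TFPI2, which had -0.64 ± 0.12 at 8 h and 0.28 ± 0.10 at 24 h, a difference of -0.93 ± 0.15 (adjusted p = 0.103). Without the 8 h library of replicate 2 under sorafenib then MMS, 63 genes passed the test of the difference, and 1 passed without DMSO replicate 2 of 24 h. The plot of both times shows the 16 genes with their errors.

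**Figure D5:**
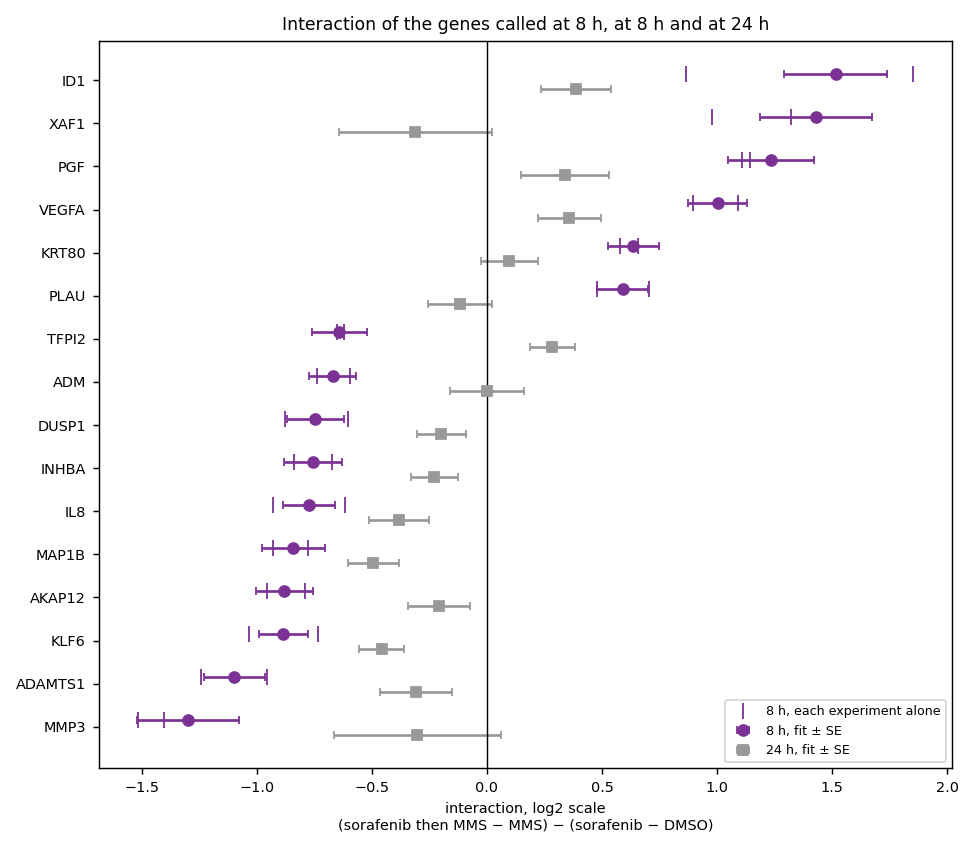
Interaction (x axis, log2) of the 16 genes past the threshold at 8 h, with the 8 h fit ± SE (circles), each experiment alone at 8 h (ticks) and the 24 h fit ± SE (squares). The 8 h values lie between -1.30 and 1.52, the 24 h values between -0.49 and 0.39, and for XAF1, PLAU and TFPI2 the sign differs between the times, while ADM lies at 0.00 at 24 h.

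Among genes past the threshold at 24 h, DUSP6 had an interaction of 0.98 ± 0.10 (adjusted p = 0.000284), against 0.55 ± 0.11 at 8 h. CST1, a secreted cystatin, had 1.33 ± 0.16 at 24 h (adjusted p = 0.00159) and 0.33 ± 0.14 at 8 h (adjusted p = 0.497), and the phosphate transporter SLC20A1 had 0.63 ± 0.09 at 24 h (adjusted p = 0.014) and 0.42 ± 0.12 at 8 h (adjusted p = 0.288). Below 0, GPRC5A had -0.52 ± 0.09 at 24 h (adjusted p = 0.0291) and -0.71 ± 0.13 at 8 h. TANC2 had -0.56 ± 0.10 at 24 h (adjusted p = 0.0291) and -0.57 ± 0.16 at 8 h (adjusted p = 0.265). Leaving out 1 library at a time gave 2 to 53 genes at 24 h, 2 without DMSO replicate 1 and 53 without sorafenib replicate 2.

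The difference in time since sorafenib was added, 20 h against 8 h, was looked at through the sorafenib effect of the 24 h libraries, where cells had sorafenib alone for 24 h. None of the 16 genes passed the test of the sorafenib effect at 24 h minus 8 h. The smallest unadjusted p among them was that of TFPI2 (0.00219), for which the adjusted p was 0.993. With 2 libraries per group, a miss in this test does not show that the effects at both times were equal. When the 24 h effect of sorafenib took the place of the 8 h effect, an alternative chosen after seeing the data, 53 genes passed (0.38%). That fit used all 16 libraries, and the fit of the same form with the 8 h effect called 7 (0.0502%). Of the 16, KLF6 (-1.02 ± 0.11, adjusted p = 0.000116), ADAMTS1 (-1.17 ± 0.17), VEGFA (0.91 ± 0.14), ID1 (1.81 ± 0.31), AKAP12 (-0.88 ± 0.14), PGF (1.26 ± 0.23), MAP1B (-0.90 ± 0.16), DUSP1 (-0.71 ± 0.12), XAF1 (1.37 ± 0.28) and KRT80 (0.83 ± 0.12) were among them. Of these, ID1, PGF, MAP1B, XAF1 and KRT80 had missed the threshold in the 16-library fit with the 8 h effect. The other 6 missed it with the same sign, and IL8, ADM, MMP3 and PLAU had missed it with the 8 h effect too, while INHBA (adjusted p = 0.0216) and TFPI2 (0.0222) had passed. With the 24 h effect IL8 had -0.53 ± 0.16 (adjusted p = 0.134), ADM -0.44 ± 0.19 (0.268), INHBA -0.53 ± 0.12 (0.0649), MMP3 -0.88 ± 0.36 (0.246), TFPI2 -0.25 ± 0.11 (0.272) and PLAU 0.55 ± 0.14 (0.0817). The 2 effects of sorafenib alone came from cells at different culture times, so that exposure and culture time cannot be told apart. The 8 h difference between sorafenib then MMS and MMS alone helped choose the 16 genes and stayed in the fit with the 24 h effect. Passing in that fit was thus favoured by the choice and lends no support.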

How the data were processed

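RNA from MDA-MB-231 cells was sequenced from TruSeq libraries, per the labels' protocols. The deposited values are raw read counts per gene. The submitters' processing notes name CASAVA 1.8.2 for base calling, TopHat2 2.0.8b with genome build hg19 for alignment, and HTSeq for counting by the authors. The annotation and the HTSeq version, mode and strand setting are not given in the sources used here. Each file has 23228 genes, and its 5 counter rows stayed out of library sizes and tests. At 8 h, 6.88 to 7.94% of reads lay in no gene, 1.05 to 1.10% were ambiguous and 29.8 to 31.5% had several alignments.

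The test was that of edgeR 4.0.16 under R 4.3.3 on the counts (TMM factors, filterByExpr, quasi-likelihood test, Benjamini-Hochberg adjusted p under 0.05 over all genes tested). The fit had 1 mean per treatment and the title start (MDA231 or MDAMB231) as block, which left 3 residual degrees of freedom. Titles begin in these ways once per group, and the series text speaks of independent experiments. Deviations from the group means correlated between same-numbered libraries at 0.579 to 0.768 in the 6 pairs of groups, all over 0.1, so the numbers were taken as pairing the samples. The biological coefficient of variation was 0.0642 with the block and 0.134 without. The p-values measure the spread left between libraries once the block is taken out, with n = 2 per group, and not the full spread between replicates. Interactions within 1 experiment were computed from log2(CPM + 1), and levels expected from added effects are the CPM of MMS times sorafenib over DMSO. Transcript lengths, that of the longest annotated transcript of each gene, came from GENCODE v29, by name, for 97.4% of genes with a mean count of at least 50.

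Named were all called genes whose mean count was 50 or more (up to 15 per direction), up to 4 members of each list with 2 or more called, by p, and IL8, IL6 and VEGFA, and for 24 h the 3 smallest p per direction. Other list members and the genes just outside the threshold were named after their values were seen. Some genes the rule names are left out. The genes, lists and tests were chosen with earlier results of these data known. Alternatives were RLE factors, no filter on low counts, a minimum mean count of 50, DESeq2 1.42.0, limma-voom (limma 3.58.1), no block, all 16 libraries in 1 fit, and each library left out in turn.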

Additional observations from a re-analysis of the deposited data

How the results depend on the processing

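The interaction at 8 h passed for 16 genes in the main setting, 14 with RLE factors, 15 with a minimum mean count of 50 and 18 with limma-voom. It passed for 214 genes with no filter on low counts, 36 with DESeq2 and 7 with all 16 libraries in 1 fit. Chosen after seeing the data, the sorafenib effect from 24 h gave 53 in a fit of all 16 libraries, to be set beside those 7. Also chosen in that way, removal of the length trend gave 57 and DESeq2 without the block 4. Without the replicate block, 0 genes passed at 8 h (367 at an unadjusted p under 0.05) and 0 at 24 h. Leaving out 1 library gave 0 to 1089 genes: 0 without DMSO replicate 2, 3 without sorafenib replicate 1, 7 without sorafenib replicate 2, 48 without replicate 1 of sorafenib then MMS and 1089 without replicate 2 of that group. In these fits a group with a lone library borrows its spread from the rest. At 24 h, 16 genes became 149 with no filter, 40 with DESeq2, 4 with all 16 libraries and 2 to 53 with 1 library left out. The difference between the times passed for 0 genes, 6 with no filter, 4 with DESeq2 and 0 to 63 with 1 library left out. The 16 genes kept their sign under every setting run. The cause of these shifts was not tested. With 3 residual degrees of freedom the number of libraries limits the precision.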
